A study of Mus musculus with 2 samples.

Results

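The protein-coding genes for the proteins of the cytosolic ribosome were described in total RNA from the neural tube, from which brain and spinal cord develop. Members were the genes annotated as protein-coding whose symbol starts with Rpl (large subunit) or Rps (small subunit), without the Rps6k kinases and without Rps19bp1. The rule found 91 genes among 43346 annotated gene entries, 34 with an Rps symbol and 57 with an Rpl symbol. Of these, 77 were core proteins of the ribosome (31 small, 46 large), 7 were paralogues with a symbol of their own (Rpl3l, Rpl7l1, Rpl10l, Rpl22l1, Rpl36al, Rpl39l and Rps27l), and 7 were further copies that the annotation holds to be protein-coding (Rps27rt, Rpl10-ps3, Rpl9-ps6, Rps12-ps3, Rpl36a-ps1, Rpl9-ps1 and Rpl36-ps4). The tissue came from healthy B6NCrl mouse embryos at 15.5 days, of both sexes, and carried no treatment or allele named in the labels. Replicate 1 pooled 78 embryos and replicate 2 pooled 62 embryos, which the labels give as biological replicates, so there was 1 group and no contrast between conditions. The 9 fixed markers of neurons and radial glia were all at 1 TPM or more in both. Expected counts over genes came to 34678043 for replicate 1 and 41355355 for replicate 2. Over 18880 genes with at least 20 counts, the libraries differed by a mean chi-square of 41.9 per gene, well beyond sampling noise.

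Ribosomal proteins are assembled with ribosomal RNA in the nucleolus into a small subunit, which reads the messenger RNA, and a large subunit, which forms the peptide bond. A ribosome carries a single copy of most of these proteins. Their messenger RNAs mostly begin with a run of pyrimidines, the TOP motif, through which LARP1 and mTOR signalling set their translation. Most members have many processed pseudogenes, copies of the messenger RNA inserted elsewhere in the genome.

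In these tables, levels were given as TPM (a transcript's share of all transcripts after correction for its length). Of the 91 members, 86 reached 1 TPM in both libraries, against 63.4% of all 21474 protein-coding genes. The 5 others were Rpl39l, Rpl3l, Rpl10l, Rpl9-ps1 and Rpl36-ps4, and the last 3 of these had no count in either library. The members together held 4.15% of all TPM in replicate 1 and 3.55% in replicate 2 (mean 3.85% ± 0.424, SD, n = 2), and 1.58% and 1.33% of gene counts. Among the 200 most abundant protein-coding genes by mean TPM were 29 members, of which 28 were core proteins, while 0.931% of all protein-coding genes fell within that rank. The median core member stood at 471 TPM in replicate 1 and 429 TPM in replicate 2. The 77 proteins of the mitochondrial ribosome (Mrpl and Mrps genes) had medians of 80.3 and 81.3 TPM in the same libraries, so the core median was 5.57 ± 0.422 times theirs (SD, n = 2).

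All 77 core members were detected, but their levels were far from equal. The lowest was Rpl5 at 53.5 TPM in replicate 1 and 46.7 TPM in replicate 2, and the highest was Rpl41 at 2041 and 1947 TPM. In all, 61 of the 77 lay within 2-fold of the core median by mean TPM, and the coefficient of variation over core members was 58.7% in replicate 1 and 61.3% in replicate 2. The order was nearly the same in both libraries, with Pearson's r of 0.99 between their log2 TPM over 77 genes, which share library and annotation.

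**Figure D1:**
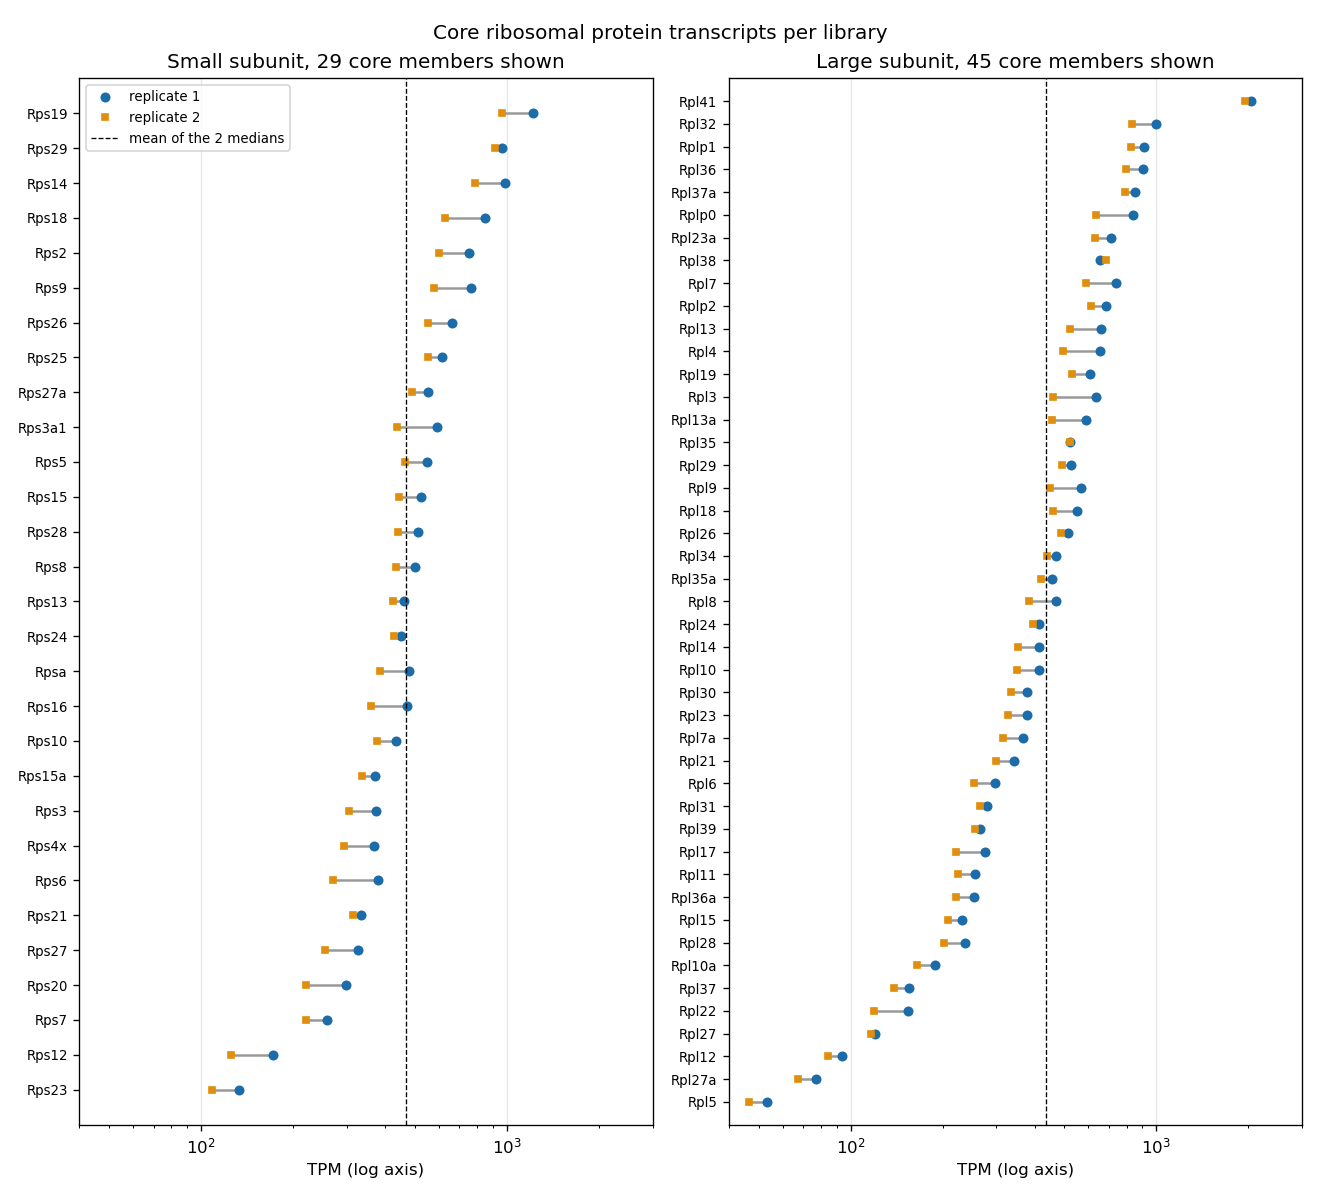
Level of 74 of the 77 core members (3 are not reported here) in TPM on a log axis, 29 of the small subunit on the left and 45 of the large subunit on the right, ordered by mean. Circles are replicate 1, squares replicate 2, and the dashed line is the mean of the medians of both libraries over all core members of the subunit. Most members lie within 2-fold of the median, a tail at the lower end is longer in the large subunit, and replicate 1 lies to the right of replicate 2 for 73 of the 74 drawn.

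Rpl41, the shortest ribosomal protein at 25 codons, led all members at 1994 ± 66.8 TPM (SD, n = 2) and was number 28 among protein-coding genes. Its coding sequence is shown because so small a frame (78 bases with the stop codon) had the highest level of a member, pseudogene copies not counted. From GENCODE release M21 transcripts, on chr10:128548114-128549305 (GRCm38, minus strand):
Rpl41: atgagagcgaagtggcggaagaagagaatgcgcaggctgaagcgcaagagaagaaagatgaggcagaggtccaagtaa

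In the small subunit the highest level was that of Rps19, a protein mutated in Diamond-Blackfan anaemia, at 1218 TPM in replicate 1 and 964 TPM in replicate 2. Rps29, a zinc-finger protein of the head of the subunit, followed at 966 and 913 TPM. Rps14 had 985 and 789 TPM, and Rps18 847 and 629 TPM. Rps2 reached 753 and 599 TPM and Rps9 763 and 580 TPM. Replicate 1 was above replicate 2 for each of these 6 genes, and Rps19 was first in both libraries.

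At the lower end of the small subunit, Rps23, which sits in the decoding centre, had 133 TPM in replicate 1 and 108 TPM in replicate 2. Rps12 had 171 and 125 TPM, and Rps7 258 and 220 TPM. Rps20 was at 297 and 220 TPM, Rps27 at 327 and 255 TPM, and Rps21 at 333 and 313 TPM. Rps23 and Rps12 lay closer to each other than the libraries did for Rps12, whereas Rps7 lay above both in both libraries.

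In the large subunit, Rpl41 was followed by Rpl32 at 998 TPM in replicate 1 and 834 TPM in replicate 2. The stalk proteins recruit the translation factors that hydrolyse GTP. Of them, Rplp1 had 910 and 825 TPM, Rplp0 842 and 637 TPM, and Rplp2 685 and 612 TPM. Rpl36 had 909 and 794 TPM and Rpl37a 855 and 789 TPM. Rpl23a, at the exit of the nascent peptide tunnel, had 712 and 632 TPM, and Rpl38 655 and 685 TPM. The 3 stalk genes thus all lay above the core median in both libraries.

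The lower tail of the large subunit reached further down than that of the small subunit. Rpl5 and Rpl11 bind the 5S ribosomal RNA and, when free, the p53 regulator Mdm2. Their own levels differed, Rpl5 at 53.5 and 46.7 TPM against Rpl11 at 256 and 224 TPM. With the pseudogene copies described further on, they were close, at 454 and 342 TPM for Rpl5 and 431 and 365 TPM for Rpl11. Rpl27a had 77.3 TPM in replicate 1 and 67.1 TPM in replicate 2, and Rpl12, at the base of the stalk, 93.9 and 84.4 TPM. Rpl27 had 120 and 116 TPM, Rpl22 154 and 120 TPM, and Rpl37 155 and 139 TPM. Among core members, only Rpl5, Rpl27a and Rpl12 were under 100 TPM. The core genes lay on 19 chromosomes, 14 of them on chromosome 7, and the 4 on the X chromosome were Rpl10, Rpl36a, Rpl39 and Rps4x, each of which has a paralogue described further on.

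The small subunit was not clearly above the large one once like members were compared. Over all members, the median of the small subunit was 490 TPM in replicate 1 and 431 TPM in replicate 2, against 378 and 335 TPM for the large subunit, a ratio of 1.29 ± 0.00822 (SD, n = 2). Among core proteins the medians were 501 and 433 TPM for the small subunit and 463 and 409 TPM for the large subunit, a ratio of 1.07 ± 0.0166. Their ranges overlapped: 18 of 31 small-subunit core members lay above the large-subunit median. The wider ratio over all members came with 11 of the 14 members outside the core belonging to the large subunit, 5 of them under 1 TPM. With 1 group and genes that are not replicates, no test was made of this ratio.

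Ribosomal proteins made as fusions, and those whose symbols the rule does not cover, had levels like those of core members. Rps27a, a core member whose gene makes a fusion of ubiquitin with a small-subunit protein, had 553 TPM in replicate 1 and 491 TPM in replicate 2. Fau, which fuses a ubiquitin-like protein to the small-subunit protein eS30, had 391 and 345 TPM, and Rack1, a signalling scaffold on the small subunit, 377 and 287 TPM. These 3 genes were higher in replicate 1.

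Near-identical pseudogene copies of the members were also assigned TPM and counts. Pseudogenes were matched by sequence: an annotated pseudogene transcript counted as a copy where it aligned to at least 80% of a core member's or paralogue's coding sequence at 95% identity or more, and each copy went to its best match. This gave 395 copies of 73 members, 109 of them at 1 TPM or more in both libraries. Summed, they held 24.3% of the members' own TPM in replicate 1 and 25.4% in replicate 2, and 15.2% and 15.7% by expected counts. Reads within a stretch that is identical in a gene and its copy cannot be assigned to either by sequence, so both values depend on how the authors' model shared the reads. The 249 pseudogenes that carry a member's symbol with the ending -ps held less, 10.0% and 10.4% of the members' TPM, since many copies have a Gm symbol.

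For 15 core members, the copies held 50% or more of the summed TPM of gene and copies in both libraries, while for 51 of the 77 they held under 10%. The 5 core members with the lowest TPM were also the 5 whose copies had more expected counts than the gene in both libraries. Rpl5 had 1432 counts in replicate 1 and 1556 in replicate 2, against 7918 and 7037 counts on its copies, nearly all on Gm15500, which matches its coding sequence at 100% identity. Its level was 53.5 and 46.7 TPM, and 454 and 342 TPM with the copies added. Rpl27 had 120 and 116 TPM alone and 808 and 802 TPM with copies, chiefly Gm11518 and Rpl27-ps3. Rps23 had 133 and 108 TPM alone and 886 and 731 TPM with copies, of which Rps23-ps1 held 749 and 618 TPM. Rpl27a had 77.3 and 67.1 TPM alone and 440 and 375 TPM with copies, of which Gm7536 held 357 and 302 TPM. Rpl12 had 93.9 and 84.4 TPM alone and 305 and 264 TPM with copies. Adding copies moved Rpl5 from place 77 to place 60 among the 77 core members, Rpl27 from place 74 to place 14 and Rps23 from place 73 to place 13.

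Copies also weighed on members that were abundant without them. Rps29 had 966 TPM in replicate 1 and 913 TPM in replicate 2, and its copy Gm14303 was listed at 1112 and 1130 TPM, from 1776 and 2155 counts against 6243 and 7042 counts on Rps29. The copy's listed transcript was shorter than that of the gene, so its share was larger in TPM than in counts. With copies added, Rps29 came first of the core members, at 2079 TPM in replicate 1 and 2045 TPM in replicate 2. Rpl41 then had 2041 and 1947 TPM, and Rps19 had 1233 and 981 TPM. Rpl13 had 658 and 524 TPM against 683 and 580 TPM on Gm12918. Rpl15 had 232 and 208 TPM, with 567 and 471 TPM on Rpl15-ps3. Rpl37 had 155 and 139 TPM, with 487 and 445 TPM on Rpl37rt.

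With copies added, the core members were closer to each other: 69 of 77 lay within 2-fold of the median, against 61 without, and the coefficient of variation was 51.8% in replicate 1 and 56.2% in replicate 2. The lowest member was then Rpl22 at 154 and 120 TPM, which has 1 copy that held at most 0.16 TPM. The ratio of the subunits' core medians stayed at 1.06 ± 0.0279 (SD, n = 2). Copies annotated as protein-coding, such as Rps27rt for Rps27 and Rpl10-ps3 for Rpl10, were not among those added. Whether any copy is itself transcribed was not tested.

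**Figure D2:**
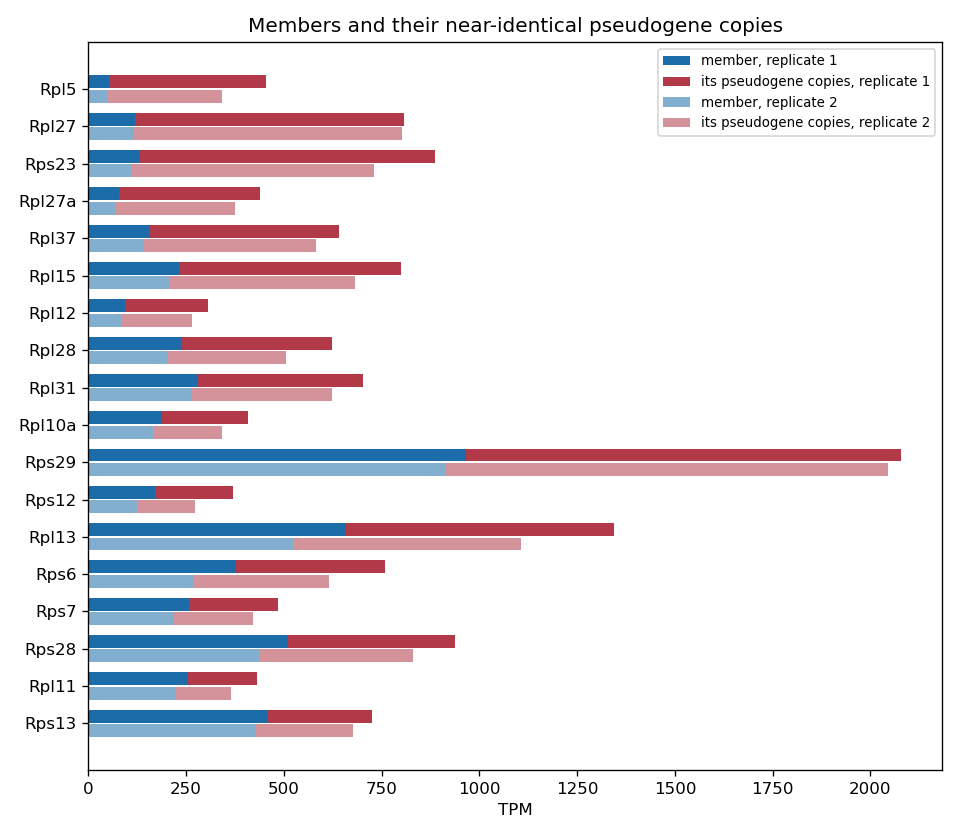
TPM of 18 of the 19 core members whose pseudogene copies held at least 35% of the summed TPM in replicate 1; 1 is not reported here. Each pair of bars is replicate 1 (dark, above) and replicate 2 (light, below), with the gene's own level in blue and its copies in red. Rpl5, Rpl27, Rps23 and Rpl27a have most of their bar in red in both libraries.

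Rps27rt, a copy on chromosome 9 that the annotation calls protein-coding, stood above the gene it resembles. It had 733 TPM in replicate 1 and 641 TPM in replicate 2, against 327 and 255 TPM for Rps27, a ratio of 2.38 ± 0.192 (SD, n = 2). Their coding sequences of 255 bases were identical at every base. The Rps27 entry of the tables was 255 bases long, no more than the coding sequence, while that of Rps27rt was 370 bases. The model's posterior SD for the count was 6.46% of its mean for Rps27 and 1.66% for Rps27rt in replicate 1. Rps27l, a paralogue whose gene is induced by p53, had 255 and 192 TPM and matched Rps27 at 76.1% of coding bases. The first 90 coding bases are shown because Rps27l differs from Rps27 along their whole length and Rps27rt nowhere. Sequences are from GENCODE release M21 transcripts for genes at chr9:114982366-114982739 (Rps27rt, minus strand), chr9:66946086-66949516 (Rps27l, plus strand) and chr3:90212522-90213651 (Rps27, minus strand) of GRCm38, and capitals mark the 24 bases of Rps27l that differ from Rps27:
Rps27rt: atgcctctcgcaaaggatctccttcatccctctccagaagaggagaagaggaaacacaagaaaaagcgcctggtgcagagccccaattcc
Rps27l: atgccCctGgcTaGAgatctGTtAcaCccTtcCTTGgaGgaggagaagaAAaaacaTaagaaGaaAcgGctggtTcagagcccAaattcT
Rps27: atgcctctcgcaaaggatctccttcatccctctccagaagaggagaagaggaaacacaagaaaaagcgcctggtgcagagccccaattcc

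The remaining copies annotated as protein-coding were lower. Rpl10-ps3 matched Rpl10 at all 645 coding bases and had 149 TPM in replicate 1 and 123 TPM in replicate 2, against 414 and 351 TPM for Rpl10. Its posterior SD was 14.8% of the mean count in replicate 1. Rpl9-ps6 had 15.04 and 18.42 TPM with 1 base different from Rpl9, which had 568 and 449 TPM. Rps12-ps3 had 14.9 and 11.8 TPM. Rpl36a-ps1 had 1.06 and 1.53 TPM, from 5.23 and 8.99 expected counts. Rpl9-ps1 and Rpl36-ps4 had no count. Of these 7 copies, only Rps27rt exceeded its counterpart.

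Some ribosomal proteins have paralogues that replace them in particular tissues. Of the 7 paralogue members, 2 lay above their counterpart and 5 below it in both libraries. Rpl22l1, which Rpl22 protein is known to repress, had 220 TPM in replicate 1 and 208 TPM in replicate 2, against 154 and 120 TPM for Rpl22, a ratio of 1.58 ± 0.220 (SD, n = 2). Per count, without division by length, the ratio was 0.736 ± 0.0163, because the Rpl22 entry was longer (952 bases in replicate 1, against 532 for Rpl22l1). Rpl36al, an autosomal copy of an X-linked gene, had 365 and 336 TPM, against 253 and 221 TPM for Rpl36a, a ratio of 1.48 ± 0.0564. Rps27l reached 0.766 ± 0.0204 times Rps27, and 1.97 ± 0.0545 times per count. Both ratios leave out Rps27rt, which has the same coding sequence as Rps27. On either measure Rps27rt alone was above Rps27l, with 733 and 641 TPM from 4406 and 4603 counts, against 255 and 192 TPM from 2271 and 2035 counts. Rpl7l1 had 67.9 and 53.7 TPM, against 740 and 589 TPM for Rpl7, a ratio of 0.0915 ± 0.000497.

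Paralogues known from testis or from muscle were near 0. Rpl10l, a testis copy of X-linked Rpl10, had no count. The level of 3 counts for it was 0.146 TPM in replicate 1 and 0.123 TPM in replicate 2, so it was at least 2826-fold and 2865-fold lower than Rpl10 in those libraries. Rpl39l, also known from male germ cells, had 12 counts (0.85 TPM) and 3 counts (0.25 TPM), against 266 and 255 TPM for Rpl39. That was 0.319% of Rpl39 in replicate 1 (exact 95% Poisson interval 0.165% to 0.558%) and 0.0980% in replicate 2 (0.0202% to 0.286%). Rpl3l, the paralogue of heart and skeletal muscle, had 4 and 3 counts, 0.0236% of Rpl3 in replicate 1 (0.00644% to 0.0605%) and 0.0196% in replicate 2 (0.00405% to 0.0573%). These intervals cover counting error only. Skeletal muscle transcripts were present in both libraries, 3 of 3 markers summing to 116 TPM in replicate 1 and 207 TPM in replicate 2, and their part in the Rpl3l counts was not tested. Rps4l, which the annotation counts as a pseudogene and the rule left out, had 203 and 211 TPM, against 366 and 293 TPM for Rps4x.

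Rpl39l and Rpl39 are shown in full because they show how a paralogue near 0 and an abundant gene differ within a frame of 156 bases. Capitals mark the 23 bases of Rpl39l (chr16:10170226-10174911, plus strand) that differ from Rpl39 (chrX:37082520-37085402, minus strand), from GENCODE release M21 on GRCm38:
Rpl39l: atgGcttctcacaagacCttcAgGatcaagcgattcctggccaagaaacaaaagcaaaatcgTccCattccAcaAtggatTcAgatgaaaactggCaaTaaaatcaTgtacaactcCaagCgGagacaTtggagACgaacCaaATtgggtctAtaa
Rpl39: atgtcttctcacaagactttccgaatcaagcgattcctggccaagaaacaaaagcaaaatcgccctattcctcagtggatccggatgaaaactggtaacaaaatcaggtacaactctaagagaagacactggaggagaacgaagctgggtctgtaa

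**Figure D3:**
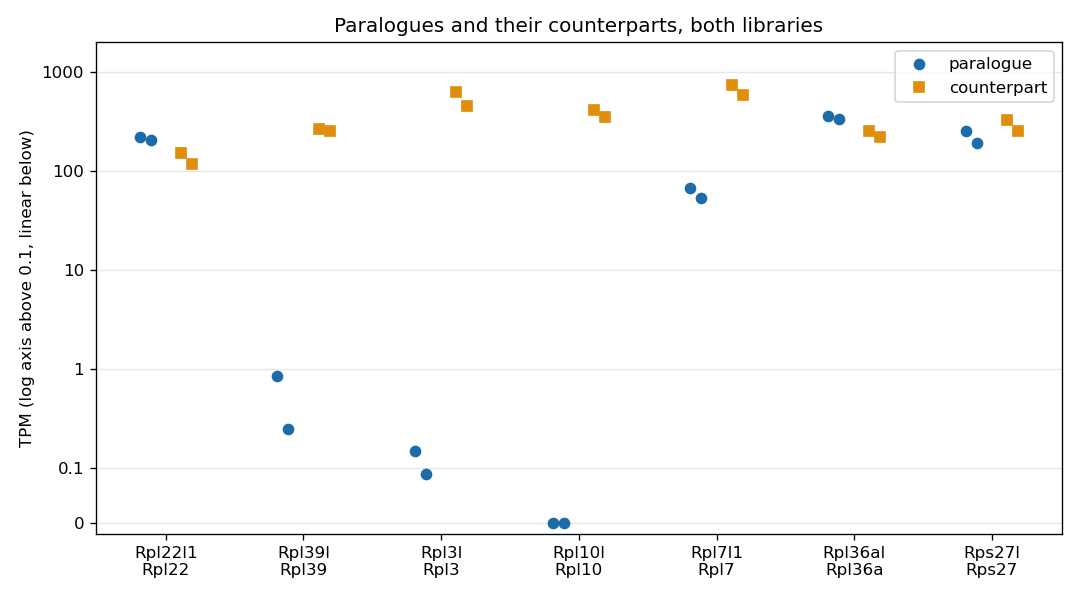
TPM of each paralogue (circles, left) and its counterpart (squares, right) in both libraries, on an axis that is logarithmic above 0.1 TPM and linear below. Rpl22l1 and Rpl36al lie above their counterparts, Rps27l lies near Rps27 (Rps27rt is not drawn), and Rpl39l, Rpl3l and Rpl10l lie below 1 TPM.

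Several members had most of their own TPM, pseudogene copies left out, in transcripts that the annotation does not class as protein-coding. Summed over all members, such transcripts held 7.53% of the TPM of matched transcripts in replicate 1 and 7.61% in replicate 2. The share was under 10% in 62 of 77 core members and over 50% in 5, with transcripts of unknown class counted as not belonging to these classes. Of the 62, Rpl13a had 79.3% and 80.3% of its TPM in transcripts that could not be matched to a class, and Rpl18 had 11.5% and 12.0%, so the shares counted for these genes are lower bounds. Of the 175 member transcripts of these classes, 165 had the same length in the tables as in the annotation used to class them. The class is an annotation of the transcript, and no translation was measured. For Rpl5, the copies left out held 84.7% of the counts of gene and copies in replicate 1 and 81.9% in replicate 2. For Rpl12 they held 58.3% and 58.0%. The shares of these 2 genes thus describe only the reads assigned to the gene itself. For Rpl35 the copies held at most 0.295%, and Rps20 and Rpl23 had no counts on copies.

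In Rpl35 the share was 95.1% in replicate 1 and 94.9% in replicate 2, with most of it on Rpl35-203, a processed transcript at 442 and 444 TPM, while the coding Rpl35-201 had 25.3 and 26.4 TPM. In Rps20 it was 93.2% and 93.3%, on Rps20-201, classed as a retained intron, at 274 and 201 TPM. In Rpl12 it was 80.3% and 82.0%, chiefly on Rpl12-201, classed as a target of nonsense-mediated decay, at 57.9 and 51.9 TPM. Rpl23 had 58.3% and 60.3%, on Rpl23-204 at 216 and 195 TPM. In Rpl5 the share was 57.0% and 53.7%, led by Rpl5-205, a retained intron at 22.8 and 17.6 TPM, beside 20.7 and 19.9 TPM for the coding Rpl5-201. Rps18 had 46.1% and 48.9%, on Rps18-209. Among these 6 genes the libraries differed by at most 3.30 percentage points.

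**Figure D4:**
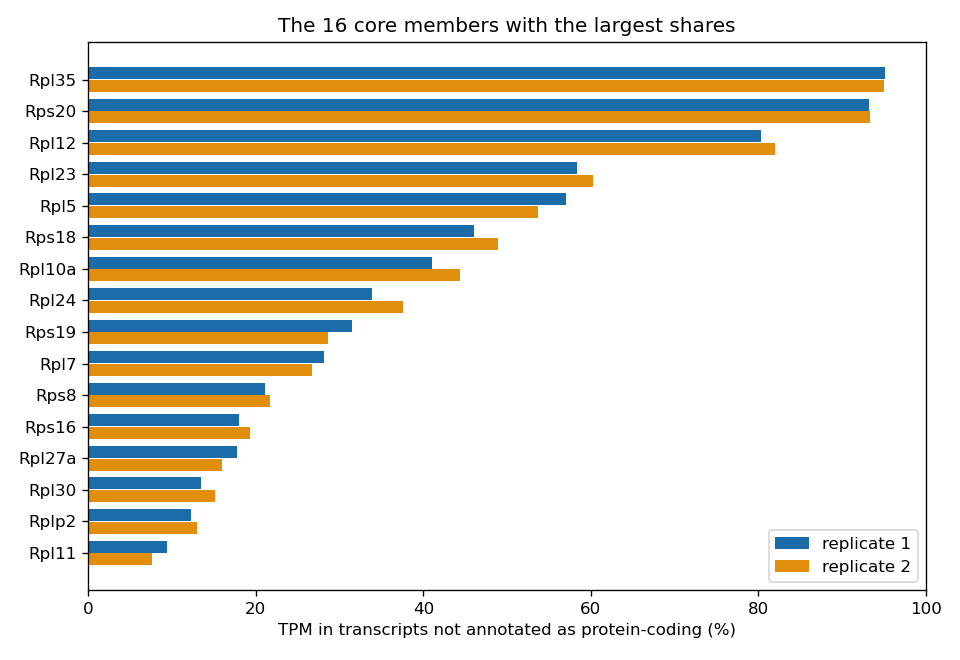
Share of a gene's own TPM (copies left out) in transcripts not annotated as protein-coding, in percent, for the 16 core members with the largest shares. Blue bars are replicate 1 and orange bars replicate 2. Rpl35 and Rps20 exceed 90% and Rpl12 exceeds 80% in both libraries, and the bars of the libraries are close in each gene.

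The TPM assigned to isoforms of Rpl22 and Rps24 differed between the libraries although the gene totals did so less. Rpl22-204 had 33.8 TPM in replicate 1 and 6.45 TPM in replicate 2, and Rpl22-208 had 12.3 and 41.9 TPM. These transcripts are 2051 and 2048 bases long and moved in opposite directions. How well reads can be split between entries of such like length was not tested, so no switch of isoform is shown. Rpl22-201 had 98.65 TPM in replicate 1 and 62.49 TPM in replicate 2, and the whole gene 154 and 120 TPM. Rps24-201 made up 93.8% of Rps24 in replicate 1 and 99.0% in replicate 2, with Rps24-202 as the rest. Both genes were chosen after their values were seen.

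Introns of ribosomal protein genes host small nucleolar RNAs, which guide the modification of ribosomal RNA. Within the members lay 58 annotated snoRNA genes on the same strand, in 30 members, with up to 5 in 1 gene, Rpl4. In the tables, 35 of them had an effective length of 0, so no level could be given. In 38 no count was found in either library. Of the others, Gm26205 in Rpl6 had 19 counts in each library and Snora64 in Rps2 had 6.83 and 16.4 counts. RNA under 200 nucleotides was left out at extraction, per the labels, so these counts do not measure mature snoRNA.

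Short pyrimidine runs were more frequent around the starts of the members than around other starts. In RefSeq promoter sequences (GRCm38.p6, 250 bases before and 50 after each annotated start), 65 of 91 members were found, with 77 starts. The motif searched was CTTTC or CTTTT on the gene's strand, within 50 bases on each side of the start. It was in 47 of 77 member promoters (61.0%), against 21.7% of 32774 other promoters. In the narrower window from 30 bases before to 20 after the start, 26 of 77 held it, and 3 had it at the first base (Rps27rt, Rpl38 and Rplp2), so these counts do not show how many messages begin with a TOP motif. CCGGAAG, on either strand in 300 bases, was in 35.1% of member promoters against 8.80% of the others, and GGGCGG in 59.7% against 35.6%. TATAAA within 50 bases before the start was in 1.30% against 2.63%. AAGATGG in the 50 bases after the start was in 5.19% against 1.29%. These motifs were read as letters only, and base composition differs between promoters.

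The windows below run from 30 bases before to 20 bases after the annotated start. They are shown because Rps27rt and Rps27 share the sequence from the pyrimidine run at the start onward (19 of 19 bases) but not before it (5 of 30 bases). Rpl38 and Rplp2 have the motif at the start, while Rpl41, the highest member without copies counted, has none in this window. Capitals mark CTTTC or CTTTT:
Rps27rt, chr9:114982720-114982769, - strand: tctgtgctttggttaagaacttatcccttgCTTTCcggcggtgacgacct
Rps27, chr3:90213629-90213678, - strand: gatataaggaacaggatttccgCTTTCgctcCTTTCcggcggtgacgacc
Rpl38, chr11:114668550-114668599, + strand: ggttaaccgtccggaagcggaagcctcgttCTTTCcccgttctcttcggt
Rplp2, chr7:141447621-141447670, + strand: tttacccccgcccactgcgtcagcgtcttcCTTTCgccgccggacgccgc
Rpl41, chr10:128549149-128549198, - strand: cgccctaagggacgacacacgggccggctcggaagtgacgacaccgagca

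Core members were higher in replicate 1 almost without exception, by a small amount. The measure was log2 of (TPM + 1) in replicate 1 over replicate 2. Of 86 members at 1 TPM or more in either library, 83 were above 0, against 53.7% of 17222 genes at that level and 43.1% of 3565 genes with a mean of 50 TPM or more. The median was 0.21 over members and 0.02 over all such genes. With TPM and under scaling by TMM, by DESeq2 size factors or by the spike-in total, the members' median lay 0.18 to 0.19 above that of all genes. Such scaling shifts the log2 ratios of all genes nearly alike, so this difference could hardly change and is no separate check. No member was 2-fold or more apart, against 3.48% of 11969 genes with a mean of 5 TPM or more and 50 or more counts, and 85 members passed that filter. The SD over members was 0.14 on this log2 scale, against 0.61 over all genes at 1 TPM or more in either library. It was 0.37 over the genes with a mean of 50 TPM or more and 0.12 over the mitochondrial ribosomal proteins. A small spread was thus not particular to the members.

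The libraries also differed in which tissues they held. Thymus markers summed to 311 TPM in replicate 1 and 9.41 TPM in replicate 2, higher in replicate 1 for 4 of 4, with Dntt under 1 TPM in both and Cd3g at 0 in replicate 2. Epithelial markers summed to 598 and 7.44 TPM (4 of 4) and smooth muscle markers to 190 and 18.2 TPM (2 of 2). Markers of dividing cells summed to 306 and 149 TPM (4 of 4 higher in replicate 1). Neuronal markers summed to 3172 and 3857 TPM, 0 of 5 higher in replicate 1, and radial glia markers to 1971 and 2350 TPM, 1 of 4 higher. Haemoglobin and Alas2 transcripts of red cells summed to 12616 and 10970 TPM, 4 of 4 higher in replicate 1. The part of these tissues in the difference between the libraries was not tested. In such pools, more cells of a type and more RNA per cell cannot be told apart.

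The members that differed most were Rps6, the substrate of S6 kinases, at 379 TPM in replicate 1 and 270 TPM in replicate 2 (log2 ratio 0.48), and Rpl3, part of the peptidyl transferase region, at 635 and 459 TPM (0.47). Rps12 followed at 0.45, Rps3a1 at 0.43 with 591 and 438 TPM, and Rps20 at 0.43. At the other end, Rpl9-ps6 had a log2 ratio of -0.28 from 198 and 289 counts. Rpl38 was the only core member below 0, at -0.06, with 655 TPM in replicate 1 and 685 TPM in replicate 2. Rpl35 had 522 TPM in both (0.00), Rpl27 was at 0.05 and Rpl24 at 0.06. With 1 library per pool, none of these differences had a replicate check.

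The difference was larger for longer proteins. Over the 77 core members, the log2 ratio and log2 of the codon number had a Pearson's r of 0.54 and a Spearman's rho of 0.53. Within the small subunit r was 0.43 (31 genes) and within the large subunit 0.66 (46 genes). The 38 core members above the median of 152 codons had a median log2 ratio of 0.25, and the 39 at or under it 0.16. By effective transcript length r was 0.38 over the core members and -0.08 over 3565 genes with a mean of 50 TPM or more. The points share both libraries, so this is a description. Within both length classes the small subunit had the larger median: its 13 longer core members had a median of 0.32 and its 18 shorter ones 0.25, against 0.23 for 25 longer and 0.14 for 21 shorter core members of the large subunit. Over all core members the medians were 0.29 for the small subunit and 0.20 for the large subunit.

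**Figure D5:**
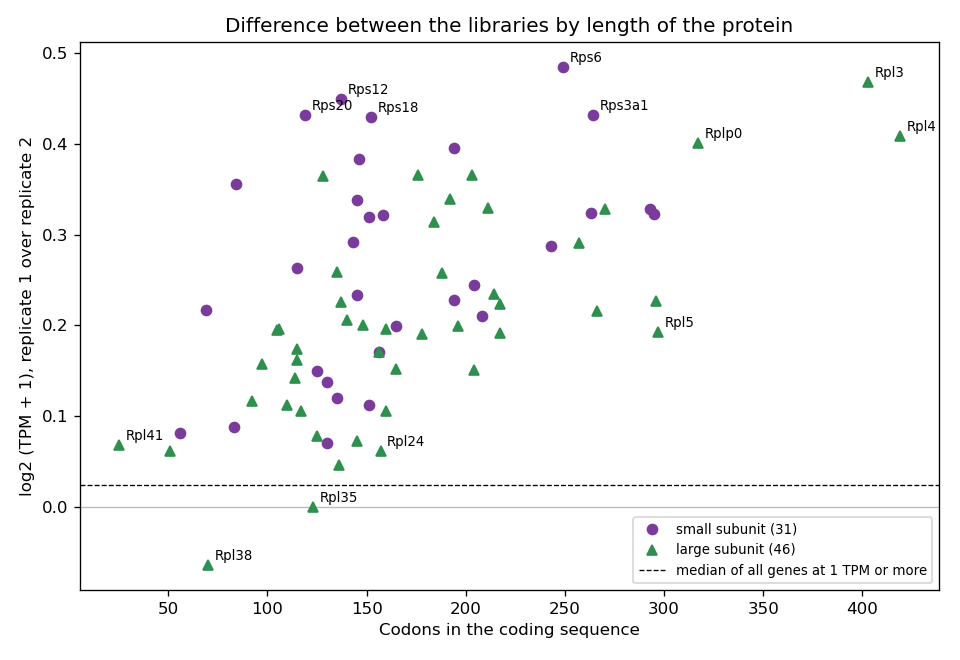
Log2 of (TPM + 1) in replicate 1 over replicate 2 against the number of codons, for 31 small-subunit (circles) and 46 large-subunit (triangles) core members. The dashed line is the median of all genes at 1 TPM or more in either library, 0.02. Of the 77 members, 75 lie above the dashed line, and the longer proteins tend to lie higher.

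Mice with altered ribosomal protein genes show tissue-specific defects, and 7 such genes were measured. Rps19 (dark skin), Rpl38 (short tail and axial skeleton), Rpl29 (small stature), Rpl24 (belly spot and tail), Rps20 (dark skin), Rpl27a (ataxia) and Rps7 had a median of 414 TPM in replicate 1 and 396 TPM in replicate 2. They ran from Rps19 at 1091 ± 180 TPM (SD, n = 2) through Rpl29 at 527 and 490 TPM and Rpl24 at 414 and 396 TPM down to Rpl27a at 72.2 ± 7.18 TPM. Without copies, these 7 genes thus spanned most of the range of core members. The low end rested on Rpl27a, which had 440 and 375 TPM with copies added. Rps7, the next lowest by mean, had 258 and 220 TPM without copies. Of the proteins reported to vary in amount between ribosomes, Rpl38 had 655 and 685 TPM, Rps25 613 and 553 TPM, Rps7 258 and 220 TPM, and Rpl10a 189 and 165 TPM. For Rps7 and Rpl10a, copies held 46.8% and 53.8% of the summed TPM in replicate 1.

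Other genes of the pathway differed in level from the members and in how they differed between the libraries. All 21 translation factors of the list were detected, with medians of 232 TPM in replicate 1 and 218 TPM in replicate 2, and a median log2 ratio of 0.14, 18 of 21 above 0. The highest were Eef1a1, which brings aminoacyl-tRNA to the ribosome, at 2794 and 2259 TPM, Eif5a at 1044 and 848 TPM, and Eif4g2 at 693 and 726 TPM. The lowest were Eif5b at 17.9 and 17.6 TPM, Eif3f at 62.4 and 57.4 TPM, and Eif2s1 at 66.1 and 59.0 TPM. Eif5b, which joins the subunits, thus lay well below the next lowest factor of the list.

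All 32 ribosome biogenesis genes were detected, at medians of 52.1 TPM in replicate 1 and 39.3 TPM in replicate 2. Their median log2 ratio of 0.25, with 28 of 32 above 0, stood beside 0.22 for the core members. Npm1, a nucleolar chaperone, had 472 and 302 TPM, Nop56 239 and 222 TPM, and Snu13 222 and 187 TPM. The lowest were Heatr1 at 6.04 and 5.21 TPM and the RNA polymerase I subunits Polr1a at 11.9 and 9.49 TPM and Polr1b at 16.8 and 11.9 TPM. The 13 regulators of TOP translation and growth had a median log2 ratio of 0.04, with 7 of 13 above 0. Rheb, the activator of mTOR, led at 188 and 210 TPM, followed by Myc at 74.97 and 53.55 TPM and the S6 kinase Rps6kb1 at 47.5 and 45.5 TPM, and Rptor at 8.52 and 9.50 TPM, Larp4 at 15.6 and 13.3 TPM, and Mtor at 17.4 and 14.3 TPM were lowest. The mitochondrial ribosomal proteins had a median log2 ratio of 0.04, with 44 of 77 above 0, unlike the cytosolic members in the same libraries, and the difference was not tested.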

How the data were processed

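Total RNA of 2 libraries, both of 1 group, was used, per the labels with 10 ng input, RNA over 200 nucleotides and spike-ins. The authors deposited a gene and a transcript table per library on mm10 with GENCODE M4, per the notes deposited with them. Not given in the sources used here were the aligner, the quantifier and the use of strand. Per the file headers, the deposited expected counts share out reads that fit several transcripts. TPM was deposited by the authors relative to all entries, spike-ins included. FPKM, deposited by the authors, served as an alternative. The deposited percent gives each transcript's part of its gene. The posterior SD of a count is a score per the file headers, and the deposited interval bounds were not used.

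Members and lists were chosen with earlier results of these data known. Symbols, types and coordinates came from GENCODE M21 on GRCm38, matched by identifier without version (42462 of 43346 gene entries). Coding sequences were cut from its transcripts, aligned with biopython 1.88 and searched with blastn 2.17.0. Named genes were the 8 highest and 6 lowest core members of each subunit, every other member with its counterpart, the 5 highest and 5 lowest log2 ratios among members of at least 5 TPM, the 6 core members with the largest share in other transcript classes, the listed mutant and variable members, and 3 highest and 3 lowest genes of each other list. Some of these genes are not reported here by name, though they count in every total. Pseudogene copies, snoRNAs and isoforms were named after their values were seen. Log2 ratios used a pseudocount of 1 TPM. Rounded expected counts gave TMM factors in edgeR 4.0.16 and size factors in DESeq2 1.42.0. Python 3.11.15 did the rest, tested on simulated data. No test between groups was possible, so values are given per library with SD over 2. Levels of 3 counts and Poisson intervals cover counting error only.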

Additional observations from a re-analysis of the deposited data

How the results depend on the processing

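The number of members detected (85 to 86) and the count apart between the libraries (0) held under every alternative run. So did the number of paralogues below their counterpart of 8 pairs (6, Rps4l included, and 5 of 7 with protein-coding transcripts only). Per count, however, those 6 were not the same pairs, since Rpl22l1 then lay below its counterpart and Rps27l above it. The members' share of 3.85% of TPM was 1.46% of expected counts, and 3.55% to 4.15% with each library left out in turn. The ratio of small-subunit to large-subunit medians, 1.29 with all members, was 1.09 in CPM, 1.07 with core proteins only, 1.21 with members of 1 TPM or more in both libraries, 1.54 with protein-coding transcripts only and 1.27 without effective lengths under 300. With a library left out, it was 1.29 to 1.30 over all members. Settings chosen after seeing the data gave 1.06 for core proteins with copies added and 1.21 for core proteins and paralogues. Per count, the ratio of Rpl22l1 to Rpl22 turned to 0.736 and that of Rps27l to Rps27 (Rps27rt left out) to 1.97, since lengths differ. The median log2 ratio between the libraries, 0.21, was 0.32 with the spike-in total, under which the median of all genes was 0.13. The share in other transcript classes was 6.26% by counts, against 7.57% by TPM, and 7.53% to 7.61% with a library left out. Named pseudogenes held 6.996% by counts, against 10.2% by TPM (10.0% to 10.4% with a library left out), and copies by sequence 15.5% by counts, against 24.8% by TPM (24.3% to 25.4%). No paired analysis was possible because both libraries belong to 1 group. Depth limits only the members with under 20 counts.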
